A study of Mus musculus with 6 samples.

Results

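The cation-chloride cotransporters behind the GABA switch are described here as 5 genes, Slc12a2, Slc12a4, Slc12a5, Slc12a7 and Slc12a9, of the 24972 genes in the deposited table. They were taken by gene symbol, each symbol matched 1 row, and all 5 passed the minimum for testing, which was a value of 10 or more in 3 or more libraries. Total RNA of the dissected mouse cortex was sequenced at postnatal day 7 (P7) in 6 libraries, 3 labelled wildtype (WT) and 3 labelled Zmiz1-KO. WT mice carried floxed Zmiz1 alleles (Zmiz1 f/f) without Cre, and Zmiz1-KO mice carried the same alleles with Emx1-Cre (Zmiz1 f/f;Emx1-Cre), so that both groups share the floxed gene and differ in Cre. Emx1-Cre is active in the progenitors that give rise to excitatory neurons and to much of the cortical glia, while interneurons, vessels, meninges and microglia arise elsewhere, and the bulk RNA holds all of these cells. Whether each library came from 1 animal is not stated, and the labels give no litter or batch, so that p-values measure the spread between these libraries only. Values are normalized counts, the reads assigned to a gene after scaling of each library with DESeq2 by the authors.

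Chloride sets what GABA does to a neuron. Young neurons take up chloride through the sodium-potassium-chloride cotransporter NKCC1 (Slc12a2), which makes GABA depolarizing, and as they mature the potassium-chloride cotransporter KCC2 (Slc12a5) extrudes chloride and GABA becomes inhibitory, a change that takes place in rodent cortex during the early postnatal weeks. KCC1 (Slc12a4) and KCC4 (Slc12a7) are potassium-chloride cotransporters of many tissues with a role in cell volume, and CIP1 (Slc12a9) is a relative without a settled transport role in neurons, described as a protein that interacts with cotransporters. In bulk tissue, fewer cells of a type and less RNA per cell cannot be told apart.

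At P7, Slc12a5 was the most abundant of the 5 RNAs in every library. No cotransporter RNA differed between the groups past the threshold. KCC2 RNA was nearly equal in the groups, NKCC1 RNA was 11.1% lower and KCC4 RNA 20.4% higher by the fitted estimate in the Zmiz1-KO-labelled libraries, and the KCC2 to NKCC1 ratio was higher in each of these libraries than in each WT library. Groups were compared with limma on log2(value + 1), with Benjamini-Hochberg adjustment over 15800 tested genes, and a gene was called at an adjusted p of 0.05 or less. Of the 5 members 0 were called, against 65 of all tested genes (0.411%). At an unadjusted p under 0.05 there were 2 members, Slc12a7 and Slc12a2, against 11% of all tested genes, and limma-voom, the other method run, called 0 members. Groups without overlap were found for 2 of the 5 members, against 16.3% of all tested genes.

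The targeted gene went against its label. Zmiz1 had 8119, 7929 and 7461 normalized counts in WT and 9944, 9779 and 9660 in the Zmiz1-KO-labelled libraries, a log2 fold change of 0.32 (SE 0.040, adjusted p = 0.00125 with limma). The table gives 1 value per gene and does not separate the deleted exons, so it does not check the deletion, and directions below are between libraries as labelled. The study also measured Zmiz1 by qPCR, which is not analysed here. Xist, which marks cells with an inactive X chromosome, was at 25307 in WT replicate 3 and at 24403 in Zmiz1-KO replicate 2 and between 12.9 and 57.3 in the other 4 libraries. Library sums were 32661979 to 33239707 normalized counts. Low values rise in steps of about 1.83 to 2.11 in these units, and the library sums amount to 15494888 to 17858395 such steps. Whether a step is a single read or a pair of reads was not settled.

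The start regions of Slc12a5 and Slc12a7 are shown because the transcription factors known to act on KCC2, such as EGR4 and USF1, bind short DNA motifs that can be searched for in them. RefSeq windows on GRCm38.p6, from 250 bases before to 50 bases after a start, matched 4 of the 5 members in 6 windows, with Slc12a2 the member left unmatched. Windows are 5′ to 3′ on the gene's strand, here the plus strand, and capitals mark motif matches. They are chr2:164960596-164960895 and chr2:164967738-164968037 for Slc12a5 and chr13:73763410-73763709 for Slc12a7. The Slc12a7 window belongs to a RefSeq start that lies inside the gene as placed by GENCODE, which begins at 73733094. The region around that GENCODE start was not searched.
Slc12a5, upstream start: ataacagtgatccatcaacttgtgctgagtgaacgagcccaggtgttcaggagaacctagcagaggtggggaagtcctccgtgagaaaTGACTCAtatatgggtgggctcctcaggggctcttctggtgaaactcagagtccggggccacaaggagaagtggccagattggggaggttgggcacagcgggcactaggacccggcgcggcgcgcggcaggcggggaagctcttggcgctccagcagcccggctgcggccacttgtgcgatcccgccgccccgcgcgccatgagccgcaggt
Slc12a5, downstream start: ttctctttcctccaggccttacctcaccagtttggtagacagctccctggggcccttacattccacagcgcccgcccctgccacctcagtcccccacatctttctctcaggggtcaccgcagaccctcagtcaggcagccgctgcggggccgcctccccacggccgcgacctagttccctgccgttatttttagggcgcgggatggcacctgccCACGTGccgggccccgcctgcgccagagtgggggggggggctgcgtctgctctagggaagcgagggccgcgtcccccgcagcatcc
Slc12a7: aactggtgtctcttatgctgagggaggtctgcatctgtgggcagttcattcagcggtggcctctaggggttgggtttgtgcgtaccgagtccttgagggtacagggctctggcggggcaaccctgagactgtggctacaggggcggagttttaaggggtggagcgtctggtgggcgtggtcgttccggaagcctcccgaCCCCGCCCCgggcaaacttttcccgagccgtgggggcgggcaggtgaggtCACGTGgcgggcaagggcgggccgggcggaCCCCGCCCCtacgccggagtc

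The motifs searched, on both strands, were GCGTGGGCG and GCGGGGGCG for EGR factors, CACGTG for the E-box of USF, TGACTCA and TGAGTCA for AP-1, TGACGTCA for the CRE and GGGGCGGGG for the GC box, and no match of a motif overlapped a match of another. CACGTG was found in 4 of the 6 windows and in 3 of the 4 matched members, against 7.15% of all 32851 windows of this length. The 2 Slc12a7 windows overlap and hold the same CACGTG, which is thus counted in both. In the downstream Slc12a5 window it begins 36 bases before the start, in Slc12a7 1 base before the start, and in Slc12a9 106 bases before. The upstream Slc12a5 window holds TGACTCA, which begins 162 bases before the start and belongs to a motif found in 5.20% of all windows. Slc12a7 holds 2 GC boxes in the window shown, the same 2 as in its other window, and Slc12a4 holds 1, against 11.4% of all windows. The EGR letters (3.47% of all windows) and the CRE (1.79%) were found in 0 of the 6 windows. The member windows hold 63% to 69.3% G and C, against a median of 52.7% over all windows. Windows of like G and C content were not compared, so these shares do not show an enrichment. A match describes the letters of the window and is not a binding site.

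Slc12a5 (chromosome 2, 164960802 to 164999731, plus strand, GENCODE on GRCm38) had 12365, 11596 and 11285 normalized counts in WT replicates 1 to 3. In the Zmiz1-KO-labelled libraries it had 11830, 12610 and 11233. The groups overlapped throughout, since the lowest and the second highest value were 11233 in Zmiz1-KO replicate 3 and 12365 in WT replicate 1. Means were 11749 ± 556 and 11891 ± 691 (SD, n = 3 each), and the log2 fold change was 0.02 (SE 0.046, adjusted p = 0.934 with limma). The 95% interval ran from -0.08 to 0.11 on the log2 scale, or from -5.47% to 8.28%. A log2 change of 0.22 would have been called for this gene at its error, the smallest such value among the 5 members.

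Slc12a2 (chromosome 18, 57878678 to 57946821, plus strand) had 1567, 1588 and 1469 normalized counts in WT. It had 1349, 1486 and 1283 in the Zmiz1-KO-labelled libraries. The overlap came from 1 pair of libraries, with Zmiz1-KO replicate 2 above WT replicate 3. Means were 1541 ± 63.7 and 1373 ± 103 (SD, n = 3 each), with a log2 fold change of -0.17 (SE 0.062, 95% interval -0.30 to -0.04, adjusted p = 0.306 with limma). A change of 0.29 would have been called.

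The 2 libraries that overlapped for Slc12a2 were also the 2 with high Xist. Between those 2 libraries Slc12a2 differed by 0.02 on the log2 scale, and between the means of the 4 libraries with low Xist it differed by -0.26. For Slc12a5 the values were 0.16 and -0.05 in the same order, and for Slc12a7 they were 0.27 and 0.27. This split was made after the values were seen and is a description. With 1 library per group at high Xist, the class of Xist and the single library cannot be told apart.

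Slc12a7 (chromosome 13, 73733094 to 73816754, plus strand) had 473, 457 and 481 normalized counts in WT. In the Zmiz1-KO-labelled libraries it had 561, 579 and 559, all above the highest WT library. Means were 470 ± 12.0 and 566 ± 11.2 (SD, n = 3 each), with a log2 fold change of 0.27 (SE 0.078, 95% interval 0.10 to 0.43, adjusted p = 0.191 with limma). Groups without overlap and higher in the Zmiz1-KO-labelled libraries were found for 8.1% of all tested genes, and 12.6% of tested genes had a larger absolute fold change. Slc12a7 was the least abundant member. It had 217 to 317 steps, for which counting error alone is 5.62% to 6.79% of the value if each step is 1 independent count. Its replicates spread by only 2.56% in WT and 1.97% in the Zmiz1-KO-labelled libraries. The observed spread was thus below that counting error, and a log2 change of 0.37 would have been called.

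Slc12a9 (chromosome 5, 137314558 to 137333597, minus strand) had 1292, 1338 and 1409 normalized counts in WT. It had 1287, 1248 and 1242 in the Zmiz1-KO-labelled libraries, all below WT, although Zmiz1-KO replicate 1 and WT replicate 1 lay close together. Means were 1346 ± 58.9 and 1259 ± 24.5 (SD, n = 3 each), with a log2 fold change of -0.10 (SE 0.057, 95% interval -0.22 to 0.02, adjusted p = 0.570 with limma). Groups without overlap and lower in the Zmiz1-KO-labelled libraries were found for 8.16% of all tested genes.

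Slc12a4 (chromosome 8, 105943590 to 105966097, minus strand) had 816, 859 and 854 normalized counts in WT. It had 890, 823 and 954 in the Zmiz1-KO-labelled libraries, which overlap WT, with replicates 1 and 3 above the highest WT library. Means were 843 ± 23.5 and 889 ± 65.3 (SD, n = 3 each), with a log2 fold change of 0.07 (SE 0.070, 95% interval -0.07 to 0.22, adjusted p = 0.769 with limma). Its value is less certain than the others, because 9.47% of its exon bases overlap Gm16156 on the opposite strand, the library kit does not mark the strand, and 3.44% of its 75-base stretches occur in another gene's transcripts. The other 4 members shared 0 such stretches.

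**Figure D1:**
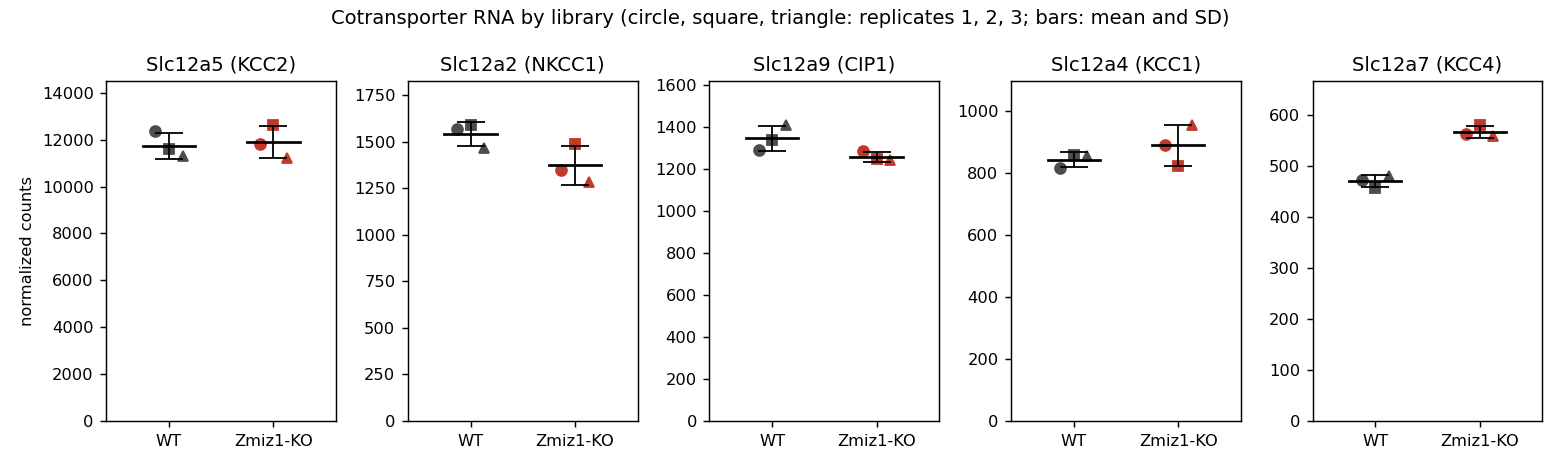
Normalized counts of the 5 cotransporter genes (y axis, from 0, a scale for each gene) in the 3 WT and the 3 Zmiz1-KO labelled libraries, with the mean and SD as bars and a symbol for each replicate. The Slc12a7 values of 559 to 579 in the Zmiz1-KO-labelled libraries lie above those of 457 to 481 in WT, the Slc12a9 groups separate narrowly, and the Slc12a5, Slc12a2 and Slc12a4 groups overlap.

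Levels of different genes can be compared only per length, so each value was divided by the length in kb of the gene's coding-transcript exons in GENCODE. Slc12a5 led with a median over the 6 libraries of 1887 normalized counts per kb (range 1809 to 2031). Slc12a9 followed with 387 (373 to 423), 4.87-fold lower, without overlap. Slc12a2 at 227 (197 to 244) and Slc12a4 at 225 (214 to 250) overlapped over the 6 libraries. In WT their means were 236 ± 9.77 and 221 ± 6.15 in this order. In the Zmiz1-KO-labelled libraries they were 211 ± 15.9 and 233 ± 17.1 (SD, n = 3 each), so the order of the means differed between the groups. Slc12a7 was lowest with 101 (88.9 to 113). Slc12a5 made up 65.3% to 68.6% of the summed level per kb of the 5 members, so that the neuronal chloride extruder was the main cotransporter RNA of the 5 in every library.

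**Figure D2:**
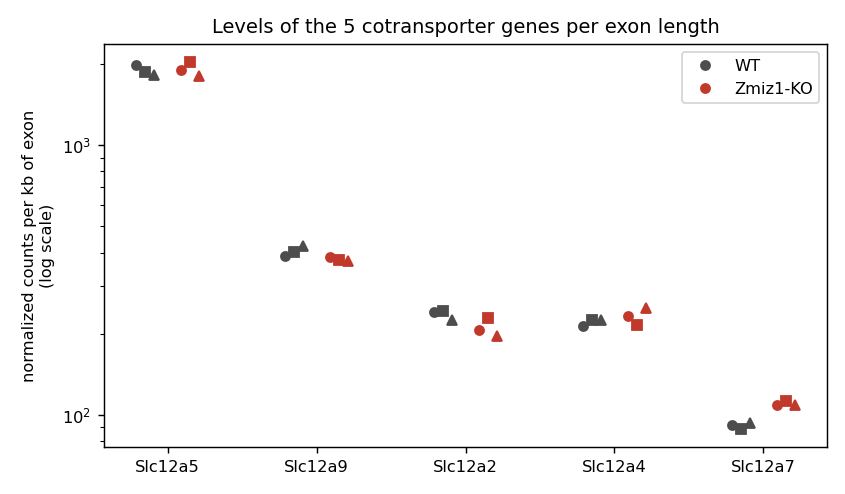
Normalized counts per kb of exon on a log axis for each library, WT in grey and Zmiz1-KO-labelled libraries in red, with a symbol for each replicate. Slc12a5 lies between 1809 and 2031 and the other 4 members between 88.9 and 423, with Slc12a2 and Slc12a4 at overlapping levels.

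The Slc12a5 to Slc12a2 ratio sets the RNA of the extruder against that of the importer within a library, so the scaling of the library cancels. In WT it was 7.89, 7.30 and 7.68, and in the Zmiz1-KO-labelled libraries 8.77, 8.49 and 8.76. All 3 labelled Zmiz1-KO lay above all WT libraries, including the 2 with high Xist, WT replicate 3 at 7.68 and Zmiz1-KO replicate 2 at 8.49. Means were 7.62 ± 0.299 and 8.67 ± 0.158 (SD, n = 3 each), a log2 difference of 0.19, or 1.14-fold. The two-sided exact permutation p was 0.1, the smallest that 3 against 3 libraries can give, so this design cannot reach 0.05, and the value adjusted over the 8 ratios examined was 0.267. Most of this difference came from the denominator, since the fitted log2 difference was -0.17 for Slc12a2 and 0.02 for Slc12a5. With Slc12a5 set over each other gene tested at a value above 0 in all libraries, 11.2% of ratios separated the groups without overlap, and with each other gene set over Slc12a2, 26.8% did. Per kb of exon the ratio was 7.67 to 9.21.

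Among the other ratios, Slc12a7 to Slc12a2 separated the groups by the most. It was 0.302, 0.288 and 0.327 in WT and 0.416, 0.390 and 0.435 in the Zmiz1-KO-labelled libraries, a log2 difference of 0.44, or 1.35-fold, with an exact permutation p of 0.1. That p is the smallest this design can give, and the value adjusted over the 8 ratios was 0.267. The difference joins those of its 2 genes, 0.27 for Slc12a7 and -0.17 for Slc12a2, and is no separate observation. Slc12a7 to Slc12a5 also separated the groups, by 0.25 on the log2 scale. Ratios of Slc12a4 and of Slc12a9 to Slc12a2 overlapped between the groups. As a comparison from another postnatal exchange, in which the adult NMDA receptor subunit Grin2a gains on the early subunit Grin2b, their ratio was 0.0885 ± 0.00823 in WT and 0.0839 ± 0.00413 in the Zmiz1-KO-labelled libraries (exact permutation p = 0.6, n = 3 each). This ratio overlapped between the groups, with its highest value in WT replicate 1.

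**Figure D3:**
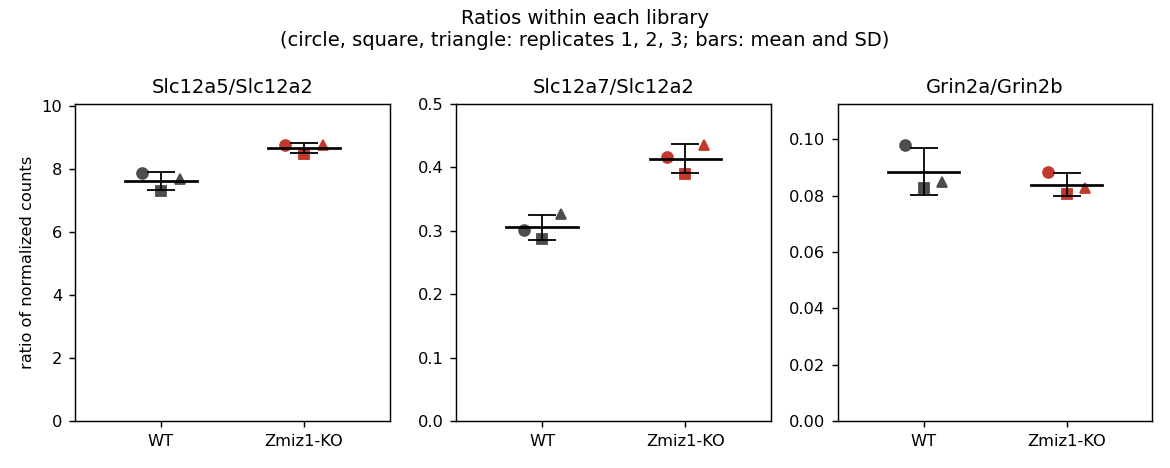
Ratios of normalized counts within each library (y axis, from 0), with the mean and SD of 3 libraries per group as bars. The Slc12a5 to Slc12a2 and Slc12a7 to Slc12a2 ratios of the Zmiz1-KO-labelled libraries lie above those of WT, while those of Grin2a to Grin2b overlap.

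Across the 6 libraries the members did not vary as a block. Slc12a2 and Slc12a4 ran opposite, with a Pearson r of -0.85 over 6 libraries, as did Slc12a5 and Slc12a4 (-0.74), Slc12a2 and Slc12a7 (-0.73) and Slc12a7 and Slc12a9 (-0.73), while Slc12a5 and Slc12a2 had an r of 0.45. These are descriptions over 6 points that share a normalization, and for Slc12a2, Slc12a7 and Slc12a9 also the split by label. The genes whose pattern was most like that of Slc12a5 were Nefl, the neurofilament light chain (r 0.994), Asb5 (0.993) and Xaf1 (0.992), and 0.772% of the 15799 other tested genes had an r of at least 0.9. Asb5 and Xaf1 were low, at 9.76 to 43.0 normalized counts. Those most like Slc12a2 were Trhde, an ectoenzyme that degrades the peptide TRH, Slc6a11, the GABA transporter GAT3 of astrocytes, and Zfp287, each at an r of 0.995, and 2.18% of the others reached 0.9. Slc6a11 had 10246, 10226 and 9808 normalized counts in WT and 9187, 9807 and 8996 in the Zmiz1-KO-labelled libraries. It was not called (log2 fold change -0.11, adjusted p = 0.295 with limma). As for Slc12a2, WT replicate 3 and Zmiz1-KO replicate 2 were the closest libraries of the 2 groups. This likeness follows from its choice by correlation over the same libraries and is no separate observation.

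Among other genes of the Slc12 family, Slc12a8 had a log2 fold change of 0.00 (adjusted p = 0.998 with limma). Slc12a1 and Slc12a3, the cotransporters of the kidney, were under the minimum, at no more than 6.34 normalized counts in any library.

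WNK kinases, through SPAK (Stk39) and OSR1 (Oxsr1), phosphorylate these transporters, activating NKCC1 and inhibiting the KCCs. Of the 10 genes of this cascade and its adaptors, 0 were called with limma and 3 had an unadjusted p under 0.05, with a median log2 fold change of -0.03 against -0.00 over all tested genes. Wnk3 had 1137, 1238 and 1138 normalized counts in WT and 1015, 1085 and 998 in the Zmiz1-KO-labelled libraries, without overlap (log2 fold change -0.18, adjusted p = 0.274 with limma). Wnk4 had a log2 fold change of 0.30 (adjusted p = 0.392 with limma) and overlapped. The kinases Stk39 and Oxsr1 themselves had log2 fold changes of 0.02 and -0.08.

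Of 14 genes whose proteins bind KCC2 or act on it, 2 were called higher and 0 lower with limma in the Zmiz1-KO-labelled libraries. Over all tested genes 0.411% were called. The estimate was above 0 for 9 of the 14 and below 0 for 5, with a list median of 0.01. Ckb, brain-type creatine kinase, had 16359, 17943 and 17572 in WT and 20057, 19264 and 19937 in those labelled Zmiz1-KO, without overlap (log2 fold change 0.19, adjusted p = 0.0437 with limma). Its call lies close to the threshold and was lost in 6 of the 16 alternatives, among them the omission of Zmiz1-KO replicate 3 (adjusted p = 0.294 with limma). The scaffold gephyrin (Gphn) and the auxiliary protein Neto2 had log2 fold changes of 0.02 and -0.03.

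Of 10 transcription factors and trophic genes that act on Slc12a5, 0 were called with limma and 3 had an unadjusted p under 0.05, with a median of -0.01. Usf1, which binds the E-box letters found in the downstream Slc12a5 window, had 2398, 2392 and 2387 normalized counts in WT and 2730, 2702 and 2826 in the Zmiz1-KO-labelled libraries, without overlap (log2 fold change 0.20, adjusted p = 0.0627 with limma). Egr4, an activity-induced factor, had 325, 268 and 336 in WT and 402, 379 and 386 in those labelled Zmiz1-KO, also without overlap (log2 fold change 0.34, adjusted p = 0.223 with limma). Neither passed the threshold. The third, Igf1r, went the other way and was lower without overlap (log2 fold change -0.13, adjusted p = 0.359 with limma). Slc12a5 itself was at nearly equal levels in the groups, and a link to these genes was not tested. Rest, the neuronal silencer, and Bdnf had log2 fold changes of 0.01 and -0.09.

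GABA receptor channels also pass bicarbonate, and of 9 bicarbonate transporters and carbonic anhydrases 0 were called with limma and 1 had an unadjusted p under 0.05. In 8 of the 9 the estimate was below 0, with a median of -0.13. The lowest p values there were those of the sodium bicarbonate transporters Slc4a4 (log2 fold change -0.14, adjusted p = 0.310 with limma) and Slc4a10 (-0.13, adjusted p = 0.466 with limma). Of 11 chloride channels 10 were tested, 0 were called with limma and 3 had an unadjusted p under 0.05, with a median of -0.04. The volume-regulated channel subunits Lrrc8b and Lrrc8c had log2 fold changes of -0.11 (adjusted p = 0.340 with limma) and -0.24 (adjusted p = 0.404 with limma).

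Grin2a had 2000, 1803 and 1847 normalized counts in WT and 1752, 1688 and 1634 in the Zmiz1-KO-labelled libraries, without overlap (log2 fold change -0.15, adjusted p = 0.293 with limma). Grin2b had a log2 fold change of -0.08 (adjusted p = 0.469 with limma).

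**Figure D4:**
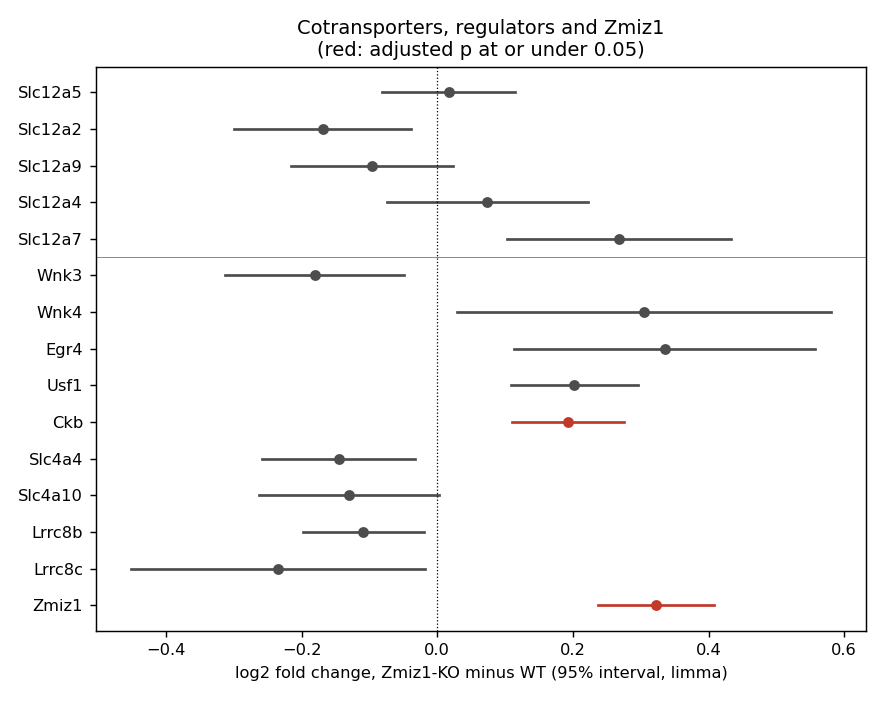
Log2 fold changes of Zmiz1-KO-labelled libraries against WT with 95% intervals from limma (x axis), for the 5 members above the line and named regulators and Zmiz1 below it. Ckb and Zmiz1, in red, passed an adjusted p of 0.05 and no member did, the interval of Slc12a5 being centred at 0.02.

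Several of these RNAs are made by more than 1 cell type of the cortex, so the summed normalized counts of marker genes were set beside them. Neuron markers were at 225999 to 245789 in WT and 225317 to 232567 in the Zmiz1-KO-labelled libraries. Excitatory neuron markers were at 31457 to 35687 and 31417 to 32776, and both sums overlapped between the groups. With limma 0 of 6 and 0 of 5 genes were called, and the estimate was below 0 for 5 of 6 and 5 of 5. Oligodendrocyte lineage markers, from cells that express Slc12a2, were at 16926 to 18911 in WT and 15149 to 15807 in the Zmiz1-KO-labelled libraries, without overlap. Of the 9 genes 1, Olig1, was called lower with limma (log2 fold change -0.32, means 4673 in WT and 3730 in the Zmiz1-KO-labelled libraries), against 0.411% of all tested genes called. The estimate was above 0 for 1 of the 9 and below 0 for 8. Not all of the lineage markers moved, since Sox10, Mog and Cspg4 had log2 fold changes of -0.01, -0.01 and 0.02. Astrocyte markers were at 35188 to 36947 and 33476 to 35475 and overlapped between the groups. Of the 6 genes 1, Aqp4, was called lower with limma (log2 fold change -0.29). The estimate was above 0 for 2 of the 6 and below 0 for 4. The oligodendrocyte sum was thus lower alongside Slc12a2, and its part in the Slc12a2 value was not tested.

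Inhibitory neuron markers were at 12936 to 17129 in WT and 17287 to 19323 in the Zmiz1-KO-labelled libraries, and striatal projection neuron markers at 8458 to 12032 and 13142 to 14273, both higher without overlap and with 0 of 6 genes called with limma in each. Meningeal fibroblast markers were at 17216 to 20591 and 22000 to 24557, without overlap, and 1 of 6 genes, Col1a2, was called higher with limma (log2 fold change 0.32). These 3 sums were higher in the libraries in which Slc12a7 was higher, and their part in the Slc12a7 value was not tested. Choroid plexus, an epithelium with abundant NKCC1, varied between libraries, with sums of 390, 8620 and 6545 in WT and 3354, 460 and 5021 in the Zmiz1-KO-labelled libraries, and 0 of 8 genes called with limma. In this order of libraries Slc12a2 was at 1567, 1588 and 1469 in WT and at 1349, 1486 and 1283 in the Zmiz1-KO-labelled libraries. The highest choroid plexus sum of WT and the lowest sum of the Zmiz1-KO-labelled libraries were both in the library with the highest Slc12a2 of its group. These sums vary largely with 1 gene, Ttr, at 7728 in WT replicate 2 and 89.8 in Zmiz1-KO replicate 2. Another marker, Otx2, was highest among the Zmiz1-KO-labelled libraries in that replicate 2, at 37.8. The part of choroid plexus in the Slc12a2 values was not tested. Endothelial and mural markers (9792 to 11337 and 10298 to 10538), microglial markers (3525 to 3837 and 3518 to 3671), ependymal markers (452 to 571 and 540 to 553) and progenitor markers (4983 to 5399 and 5268 to 5876) overlapped between the groups, with 0 genes called in each with limma.

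**Figure D5:**
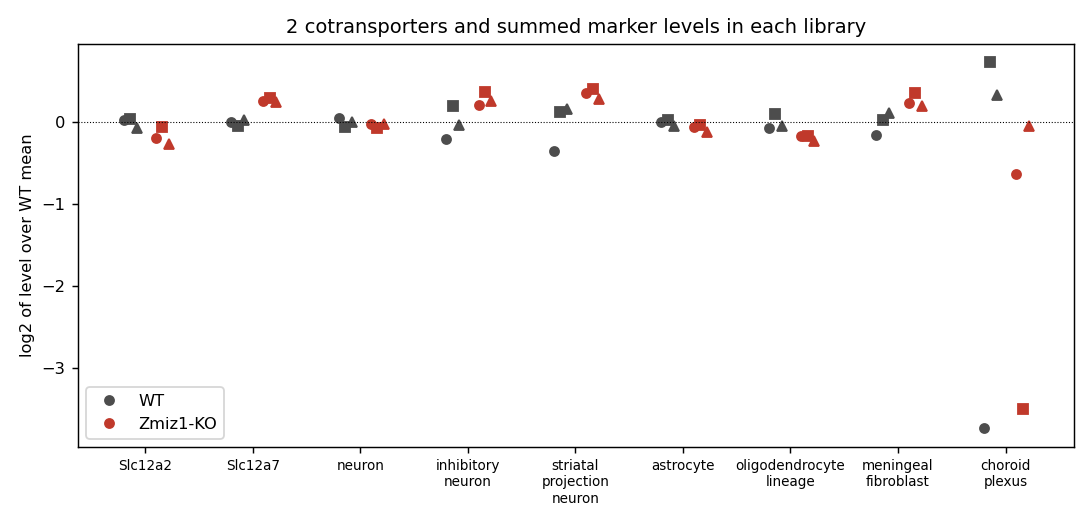
Slc12a2, Slc12a7 and summed marker levels in each library, as log2 of the level over the WT mean (y axis), WT in grey and Zmiz1-KO-labelled libraries in red, with a symbol for each replicate. Inhibitory, striatal and meningeal sums lie higher and the oligodendrocyte sum lower in the Zmiz1-KO-labelled libraries, while choroid plexus sums scatter within both groups, from 390 to 8620 in WT.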

How the data were processed

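RNA of P7 cortex was sequenced in 3 WT and 3 Zmiz1-KO labelled libraries, made with a TruSeq v2 kit. The authors aligned reads to mm10 with STAR in BaseSpace and deposited DESeq2-normalized signal values, here called normalized counts. The gene annotation and thresholds were not given in the sources used here. Low values fall near multiples of a step per library, high values do not, and reads were not recovered, so the comparison used limma (version 3.58.1, R 4.3.3) on log2(value + 1), with trend and robust estimation, no covariate, over the 15800 genes that reached 10 in 3 or more libraries. The method was also run on simulated counts, with the same spread setting for every gene and larger changes than those of the members. That run does not show how often changes of the members' size are called. Fold changes on this scale understate the change of low genes. Ratios were compared with exact permutation tests over libraries. The sum of a library over its step, 15494888 to 17858395, estimates its counted reads or read pairs, and the precision rests on this and on 3 libraries per group. The members, gene lists and marker lists were chosen with earlier results of these data known. Named genes are the members, Zmiz1 and Xist, the called genes of each list or else the 2 of lowest p, the 3 most correlated with Slc12a5 and with Slc12a2, and the genes of the comparison ratios. Some of these genes are not reported here, although counts over lists and ratios include them. Stk39, Oxsr1, Gphn, Neto2, Rest and Bdnf were added for their roles after values were seen. Of marker lists only summed levels, counts of estimates above or below 0 and called genes are given, apart from Sox10, Mog, Cspg4, Ttr and Otx2. These and Igf1r were also named after values were seen. Gene models are GENCODE vM21. Alternatives were limma-voom, other scalings, filters and pseudocounts, no robust estimation, the replicate number as a block, each library left out and, added after seeing the data, a term for Xist.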

Additional observations from a re-analysis of the deposited data

How the results depend on the processing

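Under the 16 alternatives 0 members were called. Median-ratio scaling, among these, had a factor of 1 in every library and could not differ from the main fit. Estimates ranged from 0.25 to 0.28 on the log2 scale for Slc12a7 (adjusted p 0.148 to 0.485 with limma), from -0.23 to -0.12 for Slc12a2 (0.1003 to 0.744), from -0.13 to -0.06 for Slc12a9 and from 0.02 to 0.13 for Slc12a4. Slc12a5, close to 0, changed sign without WT replicate 3 (-0.012) and without Zmiz1-KO replicate 2 (-0.026) and ranged from -0.026 to 0.057 with a library left out. The Slc12a5 to Slc12a2 log2 difference was 0.16 to 0.21 with each library left out (exact permutation p = 0.2 in each, the smallest that 3 against 2 allow), 0.21 with the 4 libraries of low Xist, and 0.19 under the replicate block (exact p = 0.25, the smallest it can give). The 65 calls over all genes became 17 without robust estimation, 168 with the replicate block and 12 to 152 with a library left out (30 without WT replicate 1, 17 without Zmiz1-KO replicate 1, 152 without Zmiz1-KO replicate 2 and 12 without Zmiz1-KO replicate 3). The cause was not tested. Deviations of same-numbered libraries from their group means had an r of -0.11 to -0.01. With 3 libraries per group these values cannot show whether the numbers pair the libraries. Ckb lost its call in 6 alternatives, Aqp4 in 2 and Col1a2 in 1, and Olig1 kept it. Depth limits Slc12a7 most, at 217 steps in its lowest library.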
